A study of Mus musculus with 18 samples.

Results

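The 10 genes described here are known targets of p53 or act in cell death, and were followed in F9 cells given 4 retinoids: Mdm2, Ccng1, Trp53inp1, Sesn1, Sesn2, Eda2r, Bbc3, Bax, Phlda3 and Zmat3. They were picked by gene symbol, with earlier results of these data known, as were the gene lists used below. The counts given beside shares of all genes therefore describe these genes and lists and are not independent support. Of these 10 genes, 9 were measured, among 19938 genes in all, each by 1 probe set; Bax, which forms pores in the mitochondrial membrane, was matched to no probe set of its own and is not analysed here, and neither is Trp53 itself. F9 is a mouse embryonal carcinoma line that turns into endoderm-like cells when given retinoic acid. All cultures were grown with foetal calf serum on gelatine, and their RNA was read on Affymetrix arrays that cover whole transcripts. The vehicle group was ethanol (EtOH) for 48 h, on 2 arrays. The retinoid groups had 1 array each at 2, 6, 24 and 48 h: all-trans retinoic acid (ATRA, 1 µM), a ligand of every retinoic acid receptor (RAR); BMS961 (RARγ, 0.1 µM); BMS753 (RARα, 1 µM); and BMS641 (RARβ, 1 µM). Each array is thus 1 culture condition of 1 cell line, and nothing in the labels says whether the 2 vehicle arrays were separate cultures.

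The transcription factor p53 is kept low by Mdm2, a ubiquitin ligase that marks it for degradation, and is released by DNA damage and other stress. It binds paired decamers near its target genes and switches on arrest of the cell cycle, metabolic control or cell death, and Mdm2 is itself a target, which closes a feedback loop. Death through this pathway runs mainly over the BCL2 family, in which proteins such as Bbc3 (PUMA) release Bax from its inhibitors.

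The promoters of the genes differ in whether they hold the p53 motif close to the start of transcription, and 3 of the 4 windows that do are shown, because Mdm2 and Ccng1 fell together early with ATRA while Sesn1 rose. Whether the motif bears on these changes was not tested. RefSeq (GRCm38.p6) gave 11 windows of 300 bases, 250 before and 50 after the start, for 8 of the 10 genes, with none for Trp53inp1 and Zmat3. The motif searched was the single p53 decamer (purines, C, A or T at the centre, G, pyrimidines), which reads the same on both strands. It was present in 4 of the 11 windows, from 4 of the 8 genes, against 8.36% of all 32851 windows of this length. These were the windows of Mdm2 (chr10:117710709-117711008, minus strand, 186 bases before the start), Ccng1 (chr11:40755237-40755536, minus strand, 185 bases before), 1 of the 2 Sesn1 windows (chr10:41887189-41887488, plus strand, 173 bases before) and Bax (201 bases before). No window of these genes held 2 decamers within 13 bases of each other, against 0.073% of all windows, nor the retinoic acid receptor motif AGGTCA on either strand, against 16.3% of all windows. The decamer is in capitals, 5′ to 3′ on the strand of the gene.
Mdm2: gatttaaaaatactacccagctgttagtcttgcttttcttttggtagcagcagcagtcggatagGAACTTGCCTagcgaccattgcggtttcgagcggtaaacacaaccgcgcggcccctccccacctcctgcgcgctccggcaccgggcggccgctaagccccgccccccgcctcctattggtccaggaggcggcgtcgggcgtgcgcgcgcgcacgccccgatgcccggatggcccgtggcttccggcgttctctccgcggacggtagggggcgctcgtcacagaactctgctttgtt
Ccng1: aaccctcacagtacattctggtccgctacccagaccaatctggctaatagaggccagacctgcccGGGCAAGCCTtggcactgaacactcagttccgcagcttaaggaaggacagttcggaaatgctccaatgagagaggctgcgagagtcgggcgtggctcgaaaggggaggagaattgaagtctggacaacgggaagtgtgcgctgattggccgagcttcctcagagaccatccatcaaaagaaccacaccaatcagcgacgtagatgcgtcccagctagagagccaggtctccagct
Sesn1: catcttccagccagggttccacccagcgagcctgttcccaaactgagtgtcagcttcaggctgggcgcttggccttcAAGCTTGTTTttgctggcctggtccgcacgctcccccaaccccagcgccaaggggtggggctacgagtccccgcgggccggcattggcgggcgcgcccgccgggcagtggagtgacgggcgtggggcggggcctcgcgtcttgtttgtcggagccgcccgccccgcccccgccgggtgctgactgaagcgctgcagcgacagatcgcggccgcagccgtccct

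Levels are the deposited log2 values, which ran from 2.05 to 14.36, with array medians between 5.31 and 5.47 over all probe sets. Precision is limited by how few arrays there are. The vehicle arrays differed from each other by a median of 0.23 over all genes. The cells carried the markers of their labelled type, some at lower levels with ATRA or BMS961. The 10 markers of pluripotent embryonal carcinoma cells had array medians of 10.28 to 11.75. Against vehicle limma called 5 of these 10 lower late with ATRA (280 of 19938 genes were lower) and 0 higher. They were Zfp42 (-1.26), Tdgf1 (-1.13), Utf1 (-0.91), Dppa4 (-0.72) and Sox2 (-0.64). With the array set as a block, described below, 2 were called. Sox2 was also lower early with ATRA (-0.89) and Utf1 late with BMS961 (-0.93), where 79 and 89 of 19938 genes were lower. The 8 fibroblast markers had array medians of 5.04 to 6.01. Of these 8, the growth factor receptor gene Pdgfra stood at 6.24 and 4.92 on vehicle and at 10.04 and 9.98 at 48 h of ATRA and BMS961. Pdgfrb, its relative, rose early (1.51 ± 0.15, limma adjusted p = 0.00094) and late (1.21 ± 0.15) with ATRA. Thy1 went the other way, with a late minus early difference of -0.87 with BMS961 (limma adjusted p = 0.0366). Late, it was also lower with ATRA than with BMS641 (-0.54), but not called with the block (-0.45). Col1a1, Col1a2, Dcn, Lum and Postn, also on this list, were called in no comparison. The part of these markers in the results was not tested. Endoderm markers (10 genes) had a median of 5.44 to 6.20 on the vehicle arrays, 5.50 to 6.15 on the early ATRA arrays, 5.93 and 9.11 at 24 and 48 h of ATRA, and 5.91 and 7.53 at 24 and 48 h of BMS961. The list was split: at 48 h of ATRA Thbd, Afp, Ttr and Apoa1 stood at 4.59, 4.25, 3.45 and 5.18, and the others at 9.05 to 11.89. Late against vehicle, limma called 0 of the 10 with ATRA (4.71% of all genes) and 0 with BMS961 (1.26%). At an unadjusted p under 0.05 there were 6 (19.8% of all genes) and 2 (11.6%). Of the 6 retinoid response genes, 5 were measured. Their median was 5.15 to 5.76 on vehicle, 7.84 to 10.28 on ATRA and 4.94 to 5.35 on BMS641 arrays. The vehicle arrays were not alike: replicates 1 and 2 stood at 8.44 and 5.17 for Stra8 and at 5.79 and 4.45 for Rarb. They stood at 5.76 and 5.15 for Hoxb1, 5.05 and 4.85 for Cyp26a1 and 5.57 and 5.52 for Hoxa5. On the BMS641 arrays Stra8 ran from 4.62 to 6.27. Vehicle replicate 1 and the 4 ATRA arrays stood apart from the other 13 arrays. Over probe sets with no listed gene, their deviations had a mean correlation of 0.283 within these 5 arrays, 0.005 within the other 13 and -0.185 across the sets. The 5 arrays were named as a set for this calculation, not found by it. Pairs of ATRA arrays share a treatment, so the mean alone does not place vehicle replicate 1 with them. The labels name no batch, and what sets these arrays apart was not tested. ATRA against a BMS compound cannot be told apart from this array set, so values with the set as a block are given beside such results. Each set holds 1 vehicle array, so with the block the control of ATRA is vehicle replicate 1 and the control of the BMS compounds is replicate 2.

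The main feature of these genes was a low early level with ATRA. At 2 and 6 h of ATRA, 8 of the 9 genes lay below both vehicle arrays, and Mdm2, Ccng1, Trp53inp1, Eda2r and Phlda3 were 1.52- to 2.41-fold lower than vehicle. These 5 genes and Sesn2 were higher at 24 and 48 h than at 2 and 6 h, and none of them then differed from vehicle by the test. With BMS961, BMS753 and BMS641 most of the same genes lay near vehicle at 2 and 6 h and at lower levels at 24 and 48 h, although a single one of these differences over time passed the test. Sesn1 was the exception, higher than vehicle with ATRA, BMS961 and BMS753 at 24 and 48 h, and already at 2 and 6 h with ATRA.

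**Figure D1:**
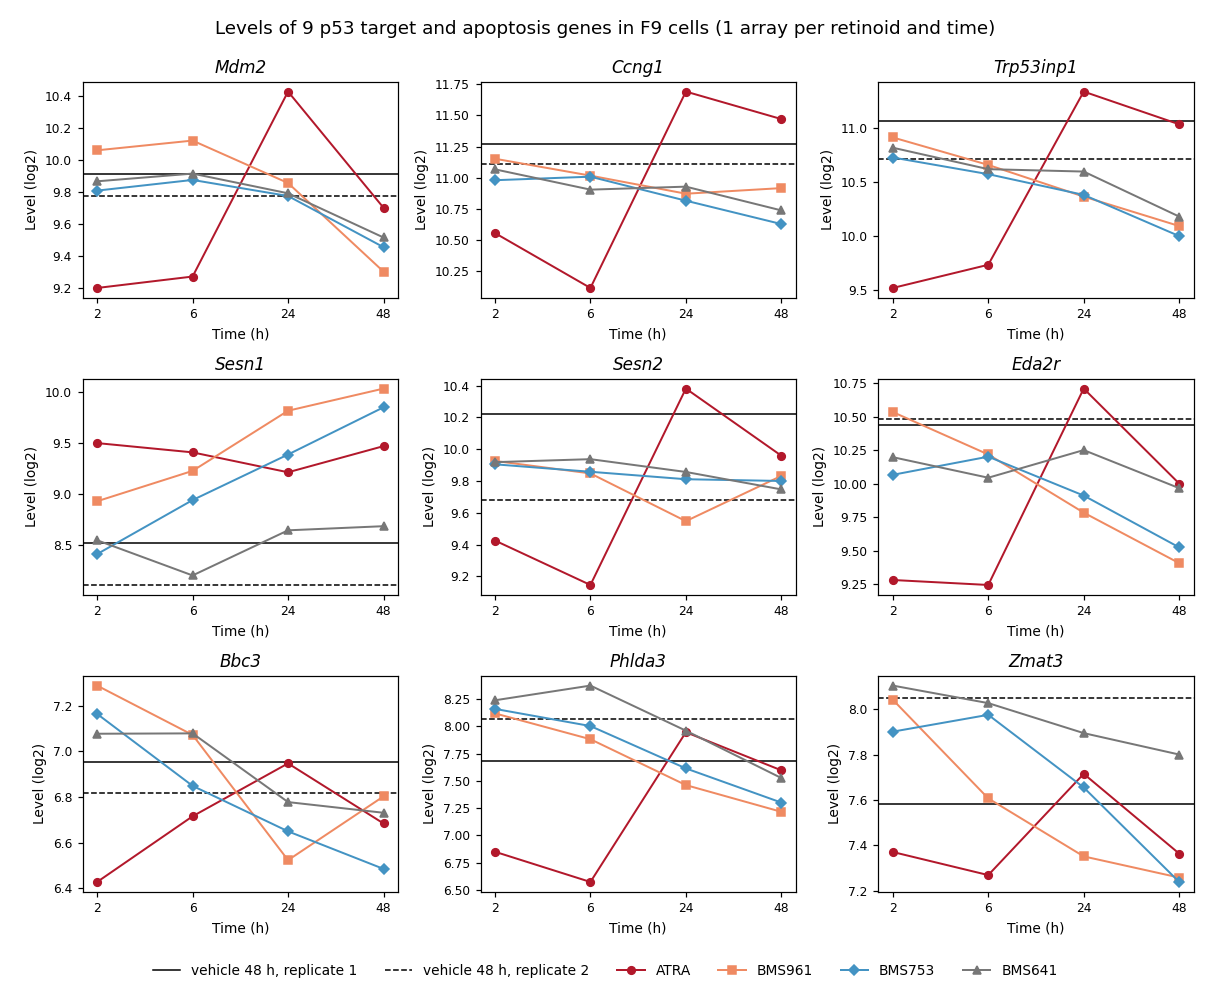
Log2 level of each of the 9 measured genes (y axis, a scale of its own per gene) against time in hours (x axis, not to scale) for ATRA, BMS961, BMS753 and BMS641, 1 array per point; the horizontal lines are the 2 vehicle arrays at 48 h. For Mdm2, Ccng1, Trp53inp1, Sesn2, Eda2r and Phlda3 the ATRA line lies lowest at 2 and 6 h and rises by 24 h, while for Sesn1 the lines of ATRA, BMS961 and BMS753 lie above both vehicle arrays at 6, 24 and 48 h.

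The tests came from 1 limma fit to all 19938 genes and all 18 arrays. Early is the mean of 2 and 6 h and late the mean of 24 and 48 h; these are different times, not replicates. With no repeated retinoid array, the error of the fit rests on the vehicle pair and on how far each retinoid strays from a time step common to all, so the p-values say nothing of how repeated cultures would vary. A call is an adjusted p (Benjamini-Hochberg over all genes) under 0.05, and differences are log2 values ± SE of the fit. The 8 comparisons with vehicle share the same 2 vehicle arrays. Vehicle was at 48 h only, so treatment and time in culture cannot be told apart for the other times. In RNA from whole cultures, fewer cells of a type and less RNA per cell cannot be told apart either.

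Mdm2, the ubiquitin ligase of p53, had log2 levels of 9.91 and 9.78 on the vehicle arrays. With ATRA the Mdm2 level was 9.20 at 2 h, 9.27 at 6 h, 10.43 at 24 h and 9.70 at 48 h. With BMS961 it was 10.06, 10.12, 9.86 and 9.30 at the same times. The early ATRA arrays were the lowest of all 18 for this gene and the 24 h ATRA array the highest. BMS753 gave Mdm2 levels of 9.81, 9.87, 9.77 and 9.45, and BMS641 levels of 9.87, 9.91, 9.79 and 9.51. These 2 compounds lay within 0.06 of each other at every time, less than the 0.14 between the vehicle arrays. Mdm2 fell early with ATRA, by 0.61 ± 0.13 (1.52-fold, limma adjusted p = 0.044), and rose from early to late by 0.83 ± 0.13 (adjusted p = 0.00601). The early call was lost under quantile normalization (-0.58, adjusted p = 0.0745) and without common steps (adjusted p = 0.274). It was also lost without vehicle replicate 1 (-0.54, adjusted p = 0.0749), without the ATRA 2 h array (-0.60, adjusted p = 0.349) and without the 6 h array (-0.61, adjusted p = 0.207). The rise was lost without the 2 h array (0.82, adjusted p = 0.0912).

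Ccng1 encodes cyclin G1, which binds protein phosphatase 2A and acts on Mdm2. Its log2 level was 11.27 and 11.11 on the vehicle arrays and 10.56, 10.12, 11.69 and 11.47 with ATRA at 2, 6, 24 and 48 h. The ATRA arrays thus lay below both vehicle arrays at 2 and 6 h and above both at 24 and 48 h. The Ccng1 level was 11.15, 11.02, 10.87 and 10.92 with BMS961, and 10.98, 11.01, 10.82 and 10.63 with BMS753. With BMS641 it was 11.07, 10.90, 10.93 and 10.74. At 24 and 48 h all 6 arrays of the BMS compounds lay below both vehicle arrays. Ccng1 fell early with ATRA by 0.85 ± 0.13 (1.81-fold, limma adjusted p = 0.00964) and rose from early to late by 1.25 ± 0.13 (2.37-fold, adjusted p = 0.00215). Without the ATRA 6 h array the early fall was -0.68 with an adjusted p of 0.113. The late ATRA level was 0.39 ± 0.13 above vehicle, which was not called (adjusted p = 0.117).

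Trp53inp1 encodes a stress-induced nuclear protein that promotes the activity of p53. It had log2 levels of 11.07 and 10.71 on the vehicle arrays, and of 9.51, 9.73, 11.34 and 11.04 with ATRA at 2, 6, 24 and 48 h. The ATRA 2 h array was the lowest of the 18 and the ATRA 24 h array the highest. With BMS961 the Trp53inp1 level was 10.92, 10.66, 10.36 and 10.09. With BMS753 it was 10.73, 10.57, 10.38 and 10.00, and with BMS641 10.82, 10.62, 10.60 and 10.18. All 3 BMS compounds ended below both vehicle arrays, and each was lowest at 48 h. Trp53inp1 fell early with ATRA by 1.27 ± 0.15 (2.41-fold, limma adjusted p = 0.00162) and rose from early to late by 1.57 ± 0.15 (2.96-fold, adjusted p = 0.00174). Both calls were kept in every alternative run. Late against vehicle, the gene stood at -0.66 ± 0.15 with BMS961 (adjusted p = 0.0562), -0.70 ± 0.15 with BMS753 (adjusted p = 0.112) and -0.50 ± 0.15 with BMS641 (adjusted p = 0.995), none of which was called.

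Eda2r encodes a receptor of the tumour necrosis factor family that binds ectodysplasin A2. Its vehicle levels were the closest pair of the 9 genes, 10.44 and 10.48 (log2). With ATRA the level was 9.28, 9.24, 10.71 and 10.00 at 2, 6, 24 and 48 h, so that both early arrays lay over 2-fold below vehicle and the 24 h array above it. BMS961 gave Eda2r levels of 10.53, 10.22, 9.78 and 9.41, and BMS753 levels of 10.07, 10.20, 9.91 and 9.52. BMS641 gave 10.20, 10.04, 10.25 and 9.97. Of the 16 retinoid arrays, 14 lay below both vehicle arrays, and the 2 above were ATRA at 24 h and BMS961 at 2 h. Eda2r fell early with ATRA by 1.20 ± 0.14 (2.29-fold, limma adjusted p = 0.00155), a call kept in every alternative run, and rose from early to late by 1.09 ± 0.14 (adjusted p = 0.00348). The rise had an adjusted p of 0.0607 without the ATRA 2 h array (1.05). With BMS961 it went the other way, falling by 0.78 ± 0.14 from early to late (adjusted p = 0.0316) to a late level 0.86 ± 0.14 below vehicle (1.82-fold, adjusted p = 0.0111). The BMS961 late call was lost without the 24 h array (-0.82, adjusted p = 0.162), without the 48 h array (-0.91, adjusted p = 0.127) and without common steps (adjusted p = 0.0795). The fall over time with BMS961 was lost without any 1 of its 4 arrays, with differences of -0.93 to -0.63 and adjusted p of 0.147 to 0.492, and without common steps (adjusted p = 0.125).

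Phlda3 encodes a small pleckstrin homology protein that keeps the survival kinase Akt from the membrane. The vehicle arrays gave log2 levels of 7.68 and 8.06. ATRA gave 6.85, 6.57, 7.95 and 7.60 at 2, 6, 24 and 48 h. The early ATRA arrays lay below all 16 others. The Phlda3 level was 8.12, 7.88, 7.46 and 7.22 with BMS961, 8.16, 8.0, 7.62 and 7.30 with BMS753, and 8.24, 8.38, 7.96 and 7.53 with BMS641. Within each BMS compound both late arrays lay below both early arrays. Phlda3 fell early with ATRA by 1.16 ± 0.15 (2.24-fold, limma adjusted p = 0.00261), in every alternative run, and rose from early to late by 1.06 ± 0.15 (adjusted p = 0.00439). Without the ATRA 2 h array the rise was 1.16 with an adjusted p of 0.058. The early to late differences of -0.66 (BMS961, adjusted p = 0.0635), -0.62 (BMS753, adjusted p = 0.34) and -0.56 (BMS641, adjusted p = 1) were not called.

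Bbc3 encodes PUMA, a BH3-only protein that triggers mitochondrial death, and was called in no comparison. The vehicle arrays stood at 6.95 and 6.82 (log2), and the ATRA arrays at 6.43, 6.72, 6.95 and 6.68. The lowest, median and highest retinoid levels of Bbc3 were 6.43, 6.79 and 7.29. Both early ATRA arrays lay below vehicle, and the early difference was -0.31 (limma adjusted p = 0.59). BMS961 went from 7.29 and 7.07 early to 6.52 and 6.80 late, BMS753 from 7.16 and 6.85 to 6.65 and 6.48, and BMS641 from 7.08 and 7.08 to 6.78 and 6.73. For each BMS compound both late arrays lay below both early ones.

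Sesn2, which like Sesn1 encodes a stress-induced sestrin that restrains the growth kinase mTORC1, had the widest vehicle pair, 10.22 and 9.68 (log2). Its ATRA levels were 9.43, 9.15, 10.38 and 9.96 at 2, 6, 24 and 48 h. The 12 BMS arrays ran from 9.55 to 9.94, and of all 16 retinoid arrays 12 lay between the vehicle arrays. The early ATRA arrays were the lowest and the 24 h ATRA array the highest. Sesn2 rose from early to late with ATRA by 0.88 ± 0.19 (1.85-fold, limma adjusted p = 0.0198). That call was lost without any 1 of the 4 ATRA arrays, with differences of 0.65 to 1.12 and adjusted p of 0.0504 to 0.135. The early difference from vehicle of -0.67 ± 0.19 was not called (adjusted p = 0.147), but was called with the array set as a block, which leaves vehicle replicate 1 as the control.

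Sesn1 had log2 levels of 8.52 and 8.11 on the vehicle arrays. With ATRA it was 9.50, 9.41, 9.21 and 9.47 at 2, 6, 24 and 48 h, above both vehicle arrays from the first time on and without a dip. With BMS961 the Sesn1 level was 8.93, 9.23, 9.82 and 10.03, and with BMS753 it was 8.41, 8.94, 9.39 and 9.85. With BMS641 it was 8.55, 8.20, 8.64 and 8.68. The BMS641 arrays lay within 0.16 of the higher vehicle array or below it, whereas ATRA led at 2 and 6 h and BMS961 and BMS753 led at 24 and 48 h. Sesn1 rose early with ATRA by 1.14 ± 0.20 (2.21-fold, limma adjusted p = 0.019), and late by 1.03 ± 0.20 with ATRA (adjusted p = 0.0178), 1.61 ± 0.20 with BMS961 (3.06-fold, adjusted p = 0.00357) and 1.31 ± 0.20 with BMS753 (2.47-fold, adjusted p = 0.0389). Early with BMS961 it stood at 0.76 ± 0.20 (adjusted p = 0.624). The ATRA calls were lost with the array set as a block, which equals leaving out vehicle replicate 2 (early 0.94, adjusted p = 0.062; late 0.82, adjusted p = 0.152). They were lost too without the ATRA 2 h (1.01, adjusted p = 0.276), 6 h (1.27, adjusted p = 0.0796) or, late, 48 h array (1.02, adjusted p = 0.128). The late BMS961 call was lost without its 24 h (1.59, adjusted p = 0.0706) or 48 h array (1.63, adjusted p = 0.0663). The late BMS753 call was lost without its 24 h (1.45, adjusted p = 0.276) or 48 h array (1.16, adjusted p = 0.806), under quantile normalization (1.21, adjusted p = 0.0685) and with arrays centred on their median (1.32, adjusted p = 0.0523).

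Zmat3 encodes a zinc finger protein that binds RNA, and was called in no comparison. The vehicle arrays stood at 7.58 and 8.05 (log2) and the ATRA arrays at 7.37, 7.27, 7.72 and 7.36. BMS961 gave Zmat3 levels of 8.04, 7.61, 7.35 and 7.26, BMS753 levels of 7.90, 7.98, 7.66 and 7.24, and BMS641 levels of 8.11, 8.03, 7.90 and 7.80. For each BMS compound both late arrays lay below both early ones, while the ATRA arrays apart from 24 h lay below vehicle throughout. The early ATRA difference was -0.50 (limma adjusted p = 0.271).

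Counted over the 9 genes, limma called 6 in the early ATRA arrays against vehicle, where it called 1.25% of all genes. Of these, 5 were lower (0.396% of all genes were) and 1, Sesn1, was higher (0.853% of all genes). Both early ATRA arrays lay below both vehicle arrays for 8 of the 9 genes, against 16.7% of all genes. The median difference of the 9 genes was -0.67, against 0.01 for all genes. Leaving out the ATRA 6 h array left 3 calls (Trp53inp1, Eda2r and Phlda3), and leaving out the 2 h array 4. With the array set as a block there were again 6, with Sesn2 in place of Sesn1.

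In the late ATRA arrays Sesn1 was the only gene called of the 9, against 4.71% of all genes, and the median difference was 0.22 (all genes -0.02). Over all genes, the array medians of late ATRA were 0.14 above those of vehicle and 0.16 above those of late BMS641. Late BMS961 had 2 calls, Sesn1 and Eda2r (1.26% of all genes), and both late arrays lay below both vehicle arrays for 6 of the 9 (15% of all genes). Late BMS753 had 1 call, Sesn1 (0.186% of all genes), with 6 of the 9 below both vehicle arrays (15.3% of all genes). Late BMS641 had 0 calls by limma (0% of all genes), with 3 of the 9 at an unadjusted p under 0.05 (4.59% of all genes) and 4 of the 9 below both vehicle arrays (11.6% of all genes). Without vehicle replicate 1 the BMS961 count was 4, while the calls over all genes went from 252 to 716. Without vehicle replicate 2 it was 3, that of BMS753 3 and that of BMS641 1, and over all genes the calls then went from 252 to 815, from 37 to 739 and from 0 to 1024. Early, limma called 0 of the 9 with BMS961 (0.0401% of all genes), BMS753 (0%) and BMS641 (0%); at an unadjusted p under 0.05 there were 1 (7.03% of all genes), 1 (5.59%) and 2 (7.53%).

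**Figure D2:**
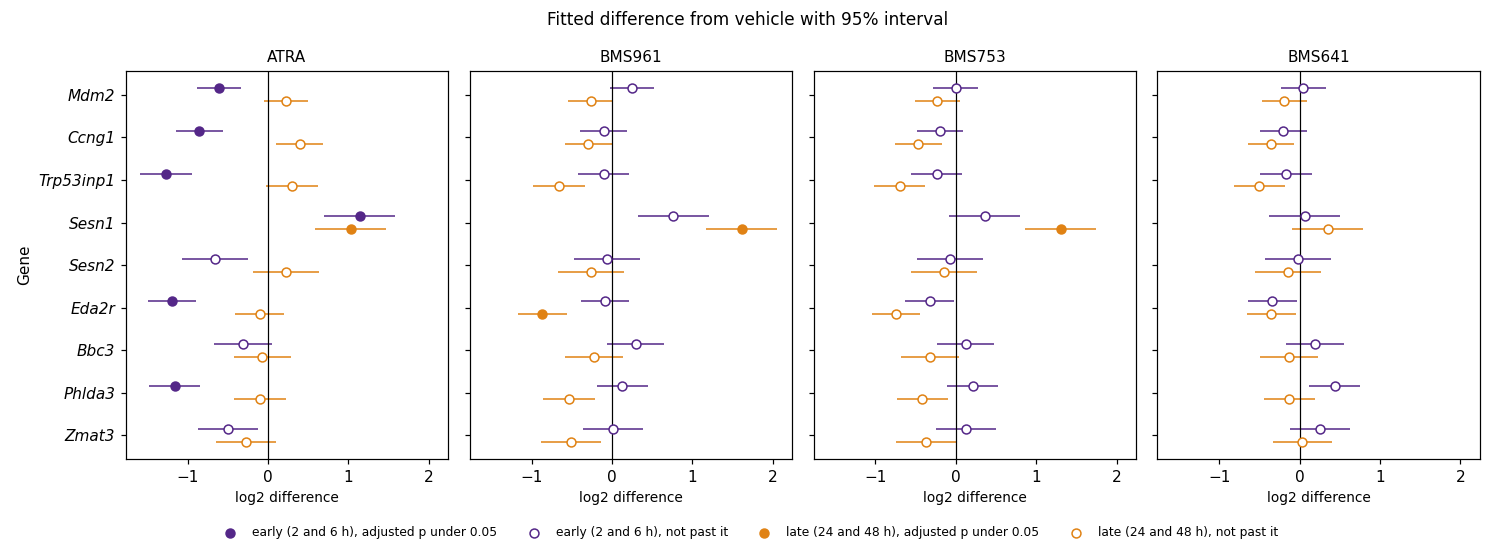
Fitted log2 difference from vehicle (x axis) of the 9 genes (y axis) with its 95% interval, early and late, in 1 panel per retinoid; filled points have an adjusted p under 0.05. Early ATRA holds 6 filled points, 5 of them to the left of 0, and Sesn1 is filled late with ATRA, BMS961 and BMS753.

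The estimated course over time does not use the vehicle levels, although the error of the fit rests in part on the vehicle pair, and the ATRA arrays all belong to 1 array set. With ATRA limma called 6 of the 9 genes higher late than early (4.95% of all genes were called higher, 7.27% either way), namely Trp53inp1, Ccng1, Eda2r, Phlda3, Sesn2 and Mdm2 in order of size. Leaving out the ATRA 2 h array left 2 of these, Ccng1 and Trp53inp1. With BMS961 it called 1, Eda2r, lower (0.767% of all genes either way). BMS753 had 0 calls (0.00502% of all genes) and BMS641 0 (0%); at an unadjusted p under 0.05 limma had 6 of the 9 (7.08% of all genes) and 2 (1.96%). The levels of both late arrays lay below both early arrays in 8 of the 9 genes with BMS961 (28.7% of all genes), 8 with BMS753 (20.5%), 6 with BMS641 (19.3%) and 0 with ATRA (25.8%). With ATRA 6 lay above (21.2%). The 6 genes that rose with ATRA already lay above both early arrays at 24 h. The median of the endoderm markers with ATRA was 5.50 to 6.15 early, 5.93 at 24 h and 9.11 at 48 h. With BMS961 it was 5.61 to 5.64 early, 5.91 at 24 h and 7.53 at 48 h. Of the 10 pluripotency markers, limma called Tdgf1 and Utf1 lower late than early with ATRA and with BMS961, and 0 higher. With ATRA, Tdgf1 went from 12.41 and 12.07 early to 11.33 at 24 h, and Utf1 from 11.07 and 10.98 to 10.04. The part of these marker changes in the course of the 6 genes was not tested.

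**Figure D3:**
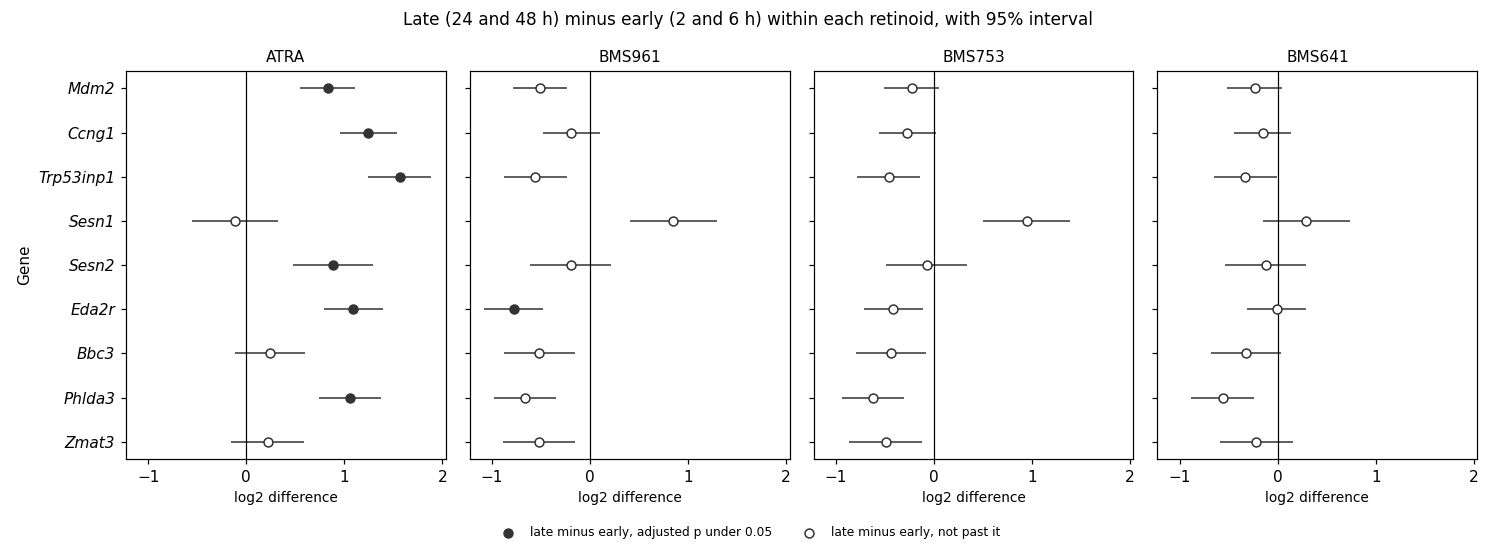
Late minus early difference (log2, x axis) of the 9 genes (y axis) with its 95% interval within each retinoid; filled points have an adjusted p under 0.05. The ATRA panel has 6 filled points above 0, and the panels of the BMS compounds lie below 0 for every gene but Sesn1.

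The difference between these courses was itself tested at the shared dose of 1 µM, a comparison added after seeing the data. The early to late change of ATRA exceeded that of BMS753 in Trp53inp1 by 2.03 ± 0.21 (limma adjusted p = 0.00932), in Phlda3 by 1.68 ± 0.21, in Ccng1 by 1.52 ± 0.19, in Eda2r by 1.51 ± 0.19 and in Mdm2 by 1.06 ± 0.18 (adjusted p = 0.0421). These are 5 of the 9 genes, against 0.366% of all genes. The same 5 genes exceeded BMS641, by 1.07 to 1.90 (0.301% of all genes). BMS753 and BMS641 differed in 0 of the 9 by limma (0% of all genes), with 1 at an unadjusted p under 0.05 (1.55%). Both counts against ATRA fell to 0 when 1 array was left out. That happened for BMS753 without its 6, 24 or 48 h array, and for BMS641 without the ATRA 2 or 48 h or the BMS641 2, 6 or 48 h array, although no difference changed sign. Only a constant shift of all ATRA arrays cancels in this comparison. An effect of the array set that varies between times cannot be told apart from the course of ATRA.

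BMS641 at the same time gave a second reference, matched in time. At 2 and 6 h ATRA lay below it, and at 24 and 48 h above it, in Mdm2, Ccng1, Trp53inp1, Sesn2 and Eda2r, 5 of the 9 genes against 5.21% of all genes. For Trp53inp1 the differences of ATRA from BMS641 were -1.30, -0.89, 0.74 and 0.86 at 2, 6, 24 and 48 h, and for Ccng1 -0.51, -0.79, 0.76 and 0.73. For Phlda3 they were -1.39, -1.80, -0.01 and 0.07, an early gap that closed. Early, limma called 6 of the 9 (1.6% of all genes), with Phlda3 -1.60 ± 0.15 (adjusted p = 0.000603), Trp53inp1 -1.10 ± 0.15 (adjusted p = 0.00481), Eda2r -0.86, Mdm2 -0.66, Ccng1 -0.65 and Sesn1 1.08. Late, it called 3 (14.8% of all genes), with Trp53inp1 0.80 ± 0.15, Ccng1 0.75 ± 0.13 and Sesn1 0.68 ± 0.20; with arrays centred on their median Sesn1 stood at 0.52 (adjusted p = 0.107). With the array set as a block 0 of the 9 were called early or late, and 10 and 13 of all genes. The early differences were then -1.22 for Phlda3 (adjusted p = 0.0796), -1.45 for Trp53inp1 (adjusted p = 0.0556), -0.81 for Eda2r, -0.79 for Mdm2, -0.81 for Ccng1 and 0.67 for Sesn1 (adjusted p = 0.528). The late differences were 0.45 for Trp53inp1, 0.59 for Ccng1 and 0.27 for Sesn1 (adjusted p = 0.839). Leaving out 1 array early (ATRA or BMS641, 2 or 6 h) left 1 or 2 calls, Phlda3 each time, and leaving out BMS641 48 h left 0 late (Ccng1 0.71, adjusted p = 0.0966).

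Between BMS753 and BMS641, both at 1 µM, no member differed by the test. Limma called 0 of the 9 early and 0 late (0% of all genes each), with 0 and 3 at an unadjusted p under 0.05 (1.2% and 4.06% of all genes). For Mdm2 the late difference was -0.04 with a 95% interval of -0.32 to 0.24, and for Ccng1 -0.11 (-0.40 to 0.18). For Sesn1 it was 0.96 (0.51 to 1.40, adjusted p = 0.331), from single-time differences of -0.14, 0.74, 0.74 and 1.17. BMS961 was given at 0.1 µM, so its values stand beside those of BMS641 with no test. Sesn1 differed by 0.38, 1.03, 1.17 and 1.35 at 2, 6, 24 and 48 h and Eda2r by 0.34, 0.17, -0.47 and -0.56, while Mdm2 stayed between -0.21 and 0.21.

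**Figure D4:**
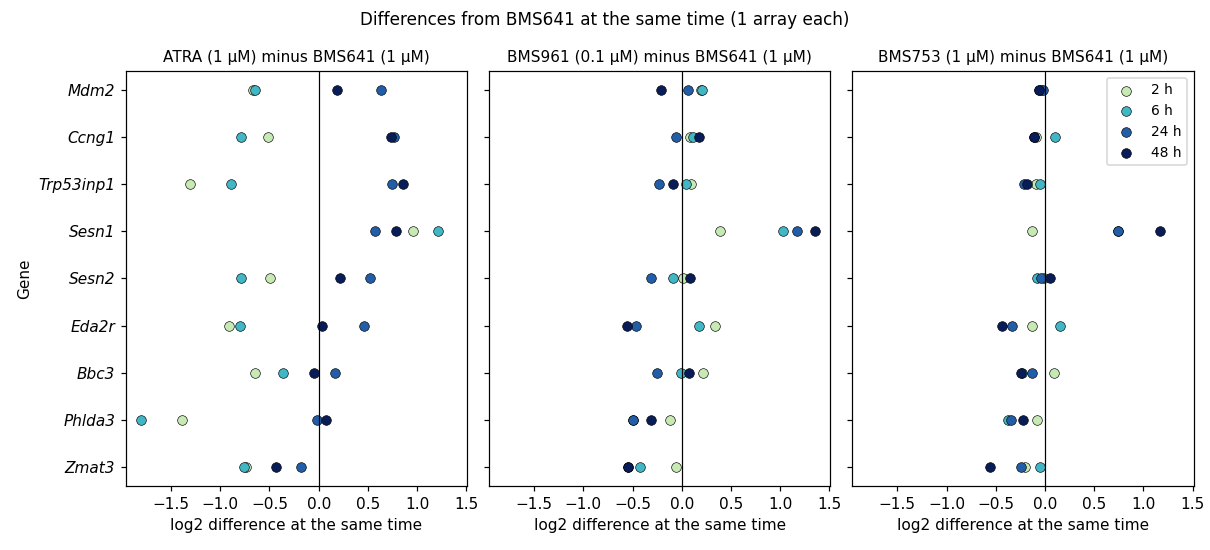
Log2 difference of ATRA, BMS961 and BMS753 from BMS641 at the same time (x axis) for the 9 genes (y axis), 1 array each, coloured by time. With ATRA the 2 h and 6 h points lie left of 0 for every gene but Sesn1, from -1.80 to -0.36, and with BMS753 the points of Mdm2 and Ccng1 lie within 0.11 of 0.

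By order of levels, ATRA was lowest of the 4 retinoids at 2 h and at 6 h in 8 of the 9 genes and highest in Sesn1. The gap between the highest and lowest retinoid ran from 0.50 (Sesn2) to 1.40 (Trp53inp1) at 2 h. At 24 h ATRA was the highest in Mdm2, Ccng1, Trp53inp1, Sesn2, Eda2r and Bbc3. At 2 h the gap from ATRA to its nearest neighbour was wider than the difference between the vehicle arrays in 8 of the 9 genes, the exception being Sesn2. Most other neighbours did not differ beyond that spread: of 27 gaps between neighbours at each time, 16 at 2 h, 17 at 6 h, 18 at 24 h and 18 at 48 h were no wider than the vehicle difference of the same gene.

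The 8 genes other than Sesn1 moved together over the 18 arrays, with Pearson r of 0.349 to 0.910 over their 28 pairs, and 0.205 to 0.909 over the 14 arrays without ATRA. Sesn1 ran against them, with r of -0.852 to -0.241, and -0.852 to -0.376 without ATRA. These points share treatments, times and the array sets. Among the 4307 genes whose range reached 1, the most similar to Mdm2 was Map3k20 (r = 0.939), to Ccng1 Trp53inp1 (0.910), to Trp53inp1 Cldn4 (0.931), to Eda2r Rev1 (0.933), to Phlda3 Btg2 (0.945), to Sesn2 Ccng1 (0.870) and to Sesn1 Xbp1 (0.939). The next in likeness were Eda2r and Trp53inp1 for Mdm2, Plxnc1 and Sesn2 for Ccng1, Rev1 and Ccng1 for Trp53inp1, and Plk2 and Map3k20 for Eda2r. For Phlda3 they were Slc19a2 and Plk2, for Sesn2 Cebpb and Map3k20, and for Sesn1 Csnk1e and Nt5e. Bbc3 and Zmat3 had a range under 1 and were not searched.

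Other p53 target genes, 31 measured of a list of 34, split in the early ATRA arrays. Limma called 4 lower (0.396% of all genes were) and 1 higher (0.853% of all genes) against vehicle, with a list median of -0.30. Plk2, a polo-like kinase, fell from 8.91 and 9.59 on vehicle to 7.65 and 7.26 (log2 level), a difference of -1.79 ± 0.20 (adjusted p = 0.00133). Ddit4 (REDD1), an inhibitor of mTORC1, went from 9.99 and 10.23 to 8.71 and 8.70. Its difference was -1.41 ± 0.15 (adjusted p = 0.0011). Btg2, an antiproliferative gene, went from 6.86 and 7.64 to 5.90 and 5.87 (-1.36, limma adjusted p = 0.01), and Psrc1, a microtubule protein, fell by 0.82 (adjusted p = 0.0482). With the array set as a block Psrc1 was no longer called (-0.92, adjusted p = 0.0501), while Plk2, Ddit4, Btg2 (-0.98) and Plk3 were. In all 4 genes both early ATRA arrays lay below both vehicle arrays. Plk3, a stress-responsive kinase, did the opposite: it stood at 7.51 and 7.36 on vehicle and at 9.40, 9.09, 9.60 and 8.62 with ATRA, a rise of 1.81 ± 0.21 early and 1.67 ± 0.21 late. It rose with BMS961 early (1.53) and late (1.59) and with BMS753 late (1.37), and stood at 0.29 with BMS641 late (adjusted p = 0.997).

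From early to late with ATRA, limma called 4.95% of all genes higher and 7.27% either way. Of these 31 genes it called 9 higher and 1 lower, with a list median of 0.26 (all genes -0.04). Those higher were Plk2 (1.72), Ddit4 (1.11), the death receptor Tnfrsf10b (1.03), Gadd45a (0.99), the peptide transporter Tap1 (0.93), Btg2 (0.87), Ephx1 (0.84), the DNA polymerase Polk (0.75) and Ddb2 (0.67). Sfn, which encodes a 14-3-3 protein, fell by 1.72 over time. Its late level was 1.49 below the mean of vehicle arrays at 6.41 and 7.91 (limma adjusted p = 0.0346), but 0.74 below replicate 1, its control with the array set as a block (adjusted p = 0.117). With BMS961 Plk2 fell from early to late by 1.08 (adjusted p = 0.0372). The ATRA change exceeded those of BMS753 and BMS641 in Plk2 (by 2.49 and 1.93), Ddit4 (1.41 and 1.45), Tap1 (1.40 and 1.36) and Tnfrsf10b (1.26 and 1.25), 4 of 31. Over all genes the shares called were 0.366% for BMS753 and 0.301% for BMS641. Late against vehicle ATRA had 2 of the 31 called higher, Plk3 and Tap1, and 1 lower, Sfn, against 4.71% of all genes. Tap1 stood 0.67 higher, and 0.46 with the block (limma adjusted p = 0.205). Dram1 was not called, though it stood at 5.74 and 8.95 with ATRA at 24 and 48 h. It was 5.56 and 7.44 with BMS961 at these times, 5.52 to 5.60 with BMS753 and BMS641, and 5.88 and 5.34 on vehicle. Ccnd2, which encodes cyclin D2, lay at least 2-fold above both vehicle arrays late with BMS753 and BMS641, at levels of 10.07 and 10.03 and of 9.63 and 9.78 against 7.71 and 8.53, though with limma adjusted p of 0.191 and 0.995. This rule alone sets them apart. Ccnd2 also stood at 9.94 and 9.46 late with BMS961, and at 9.89, 9.98, 8.01 and 10.18 with ATRA at 2, 6, 24 and 48 h. Its late difference from vehicle was 1.58 with BMS961, 1.58 with BMS641, 1.93 with BMS753 and 0.97 with ATRA. Against BMS641, ATRA was lower early in Plk2 (-1.85), Btg2 (-1.80), Ddit4 (-1.46) and the exonuclease Aen (-0.72) and higher in Plk3 (1.40). This was 5 of the 31, against 1.6% of all genes. With the array set as a block, added for the list genes after seeing the data, 0 of these 5 were called, at -1.17, -1.03, -1.22, -0.65 and 1.25. Late ATRA was higher in Plk3 (1.38), Tap1 (0.91) and Tnfrsf10b (0.82) and lower in Sfn (-1.34), Polh (-0.996), Triap1 (-0.73) and Gtse1 (-0.67). This was 7 of the 31, against 14.8% of all genes. With the block 0 of these 7 were called: Plk3 stood at 1.23, Tap1 at 0.48, Tnfrsf10b at 0.73, Triap1 at -0.36 and Gtse1 at -0.47. Polh was then at -0.08 and Sfn changed sign, to 0.16; vehicle replicates 1 and 2 stood at 6.86 and 7.78 for Polh and at 6.41 and 7.91 for Sfn, gaps about as wide as those between ATRA and BMS641.

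**Figure D5:**
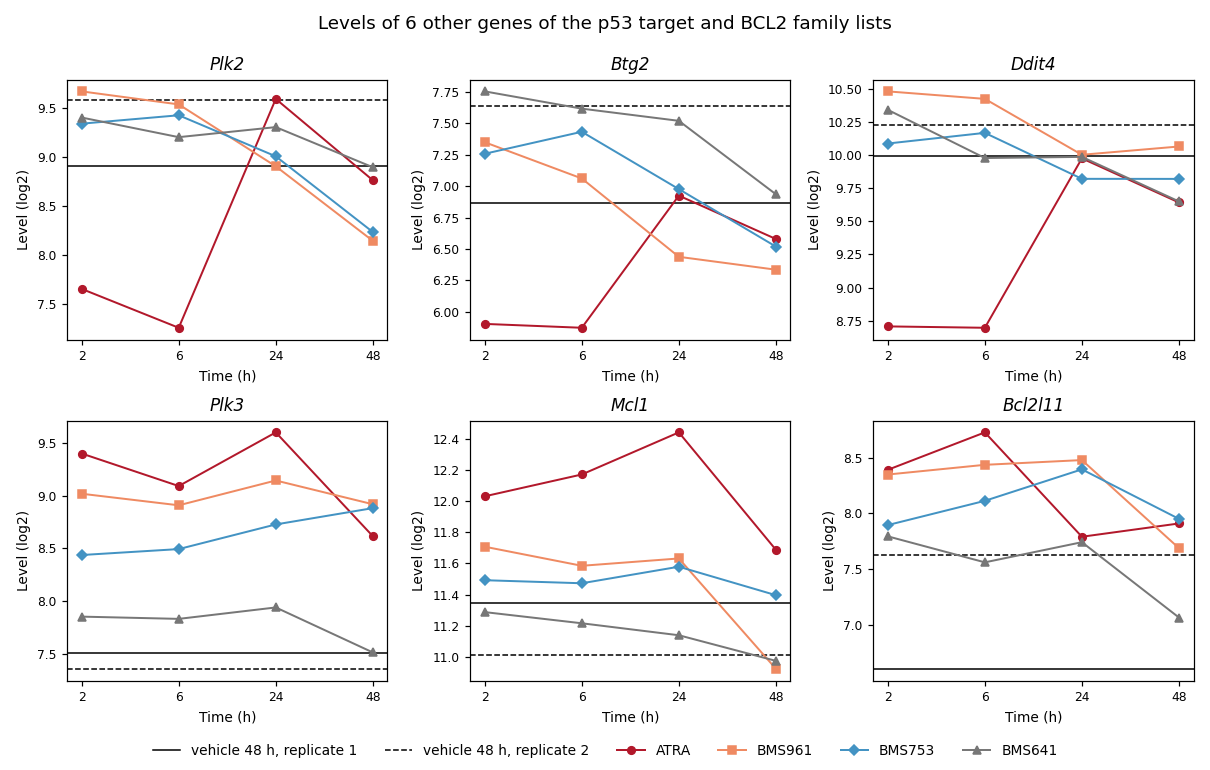
Log2 level (y axis, a scale of its own per gene) of 6 genes of the p53 target and BCL2 family lists against time in hours (x axis, not to scale), 1 array per point, with the 2 vehicle arrays as horizontal lines. Plk2, Btg2 and Ddit4 are lowest with ATRA at 2 and 6 h, whereas Plk3, Mcl1 and Bcl2l11 lie above both vehicle arrays there.

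Among 17 measured regulators of p53, of a list of 18, limma called 0 early with ATRA (1.25% of all genes). At an unadjusted p under 0.05 there were 4 of the 17, against 10% of all genes. Late with ATRA 1 of the 17 was called, against 4.71% of all genes. It was Ppp1r13b, which encodes the p53-binding protein ASPP1, 1.18 above vehicle (limma adjusted p = 0.0235). Blocking on the array set put it at 0.79 above (adjusted p = 0.185). It also rose from early to late with ATRA (1.24), as did Hipk2, a kinase of p53 (0.80), and Cdkn2a, whose ARF product blocks Mdm2 (0.67). These were 3 of the 17, against 4.95% of all genes called higher. Against BMS641 late, ATRA had Ppp1r13b (1.70) and Hipk2 (1.05) higher and the checkpoint kinase gene Chek2 lower (-1.49). This was 3 of the 17, against 14.8% of all genes. With the block 0 of these 3 were called, at 0.91, 0.73 and 0.24. Chek2 thus changed sign; its vehicle arrays stood at 7.31 and 9.05, a gap wider than that between ATRA and BMS641.

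All 15 genes of the BCL2 family list were measured, and with ATRA early limma called 3 higher (0.853% of all genes) and 0 lower (0.396%). Mcl1, which protects from death, stood at 11.35 and 11.01 on vehicle and at 12.03, 12.17, 12.45 and 11.69 with ATRA (log2). It rose by 0.93 ± 0.17 early (limma adjusted p = 0.0256) and 0.89 late (adjusted p = 0.0171). Late with ATRA it was the 1 call of the 15, against 4.71% of all genes. All 4 ATRA arrays of Mcl1 lay above both vehicle arrays. Bcl2l11 (BIM), a BH3-only killer, rose by 1.44 ± 0.29 early (limma adjusted p = 0.0365), from vehicle arrays as far apart as 6.61 and 7.62. Bak1, a pore former like Bax, rose by 0.61 ± 0.12 early with ATRA (adjusted p = 0.0363) and late with BMS961 (0.57) and BMS753 (0.76). Against BMS641, Mcl1 was the 1 gene of 15 called with ATRA, higher early (0.85, against 1.6% of all genes) and late (1.01, against 14.8%). Blocked on the array set, these Mcl1 differences were 0.52 (adjusted p = 0.568) and 0.68 (adjusted p = 0.632), and those from vehicle 0.76 early (adjusted p = 0.0747) and 0.72 late (adjusted p = 0.143), so that its 4 calls were lost. Bcl2l11 (1.95) and Bak1 (0.71) were still called early against vehicle with the block.

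Of 21 measured caspase, apoptosome and inhibitor genes, of a list of 23, limma called 0 with any retinoid against vehicle, early or late. At an unadjusted p under 0.05 there were late 5 with ATRA (19.8% of all genes), 5 with BMS961 (11.6%), 6 with BMS753 (8.73%) and 2 with BMS641 (4.59%). Early there were 0 with ATRA (10% of all genes), 3 with BMS961 (7.03%), 1 with BMS753 (5.59%) and 2 with BMS641 (7.53%). These counts do not show flat courses, because a late mean can miss a change at 1 time. Casp6, not called, stood at 6.23 and 6.74 on vehicle and at 6.39 and 8.15 with ATRA at 24 and 48 h. At those times it was 7.68 and 7.78 with BMS961, 7.48 and 7.63 with BMS753 and 7.31 and 7.08 with BMS641. From early to late with ATRA 1 of the 21 was called, against 7.27% of all genes. This was Apaf1, the core of the apoptosome, which rose by 0.63 ± 0.13 (limma adjusted p = 0.0161). Late against BMS641, ATRA had Tradd higher (0.81) and Aifm1 (-0.88), Dffb (-0.78) and Htra2 (-0.67) lower, 4 of the 21 against 14.8% of all genes. The fit that blocks on the array set called 0 of these 4, with Tradd at 0.26, Htra2 at -0.05 and a change of sign in Aifm1 (0.09) and Dffb (0.04). Between the vehicle arrays, replicate 1 minus replicate 2, these genes differed by 0.55 (Tradd), -0.97 (Aifm1), -0.82 (Dffb) and -0.63 (Htra2). The list medians early with ATRA were 0.04 here, 0.18 in the BCL2 family and -0.15 for the regulators of p53, against 0.01 for all genes.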

How the data were processed

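Total RNA of F9 cells was labelled with biotin and measured on 18 Affymetrix whole-transcript arrays, per the labels. The authors deposited log2 levels per probe set, which the submitters' processing notes credit to RMA in Affymetrix Expression Console 1.1; they were used without further scaling. Of 35556 probe sets, 21789 had 1 gene symbol in the platform annotation, 1621 had several and 12146 were not listed. A gene was its probe set with 1 symbol, the brightest on average for the 999 genes with several, which left 19938 genes and no filter on dim ones.

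Groups came from the labels. The fit, by limma 3.58.1 under R 4.3.3, held 9 group means and common steps from 2 to 6 h and 24 to 48 h, which left 7 residual degrees of freedom (eBayes prior 4.55), with Benjamini-Hochberg adjustment over all genes within each comparison at 0.05. The fit was tried on simulated data for ATRA early against vehicle, with 200 of 19938 genes changed. There 88% of log2 changes of 1 and of -1, and 100% of changes of 2 and 3, were recovered, with 15 false calls. Whether these rates hold for the measured arrays, with their array sets, was not tested. The members and gene lists were chosen with earlier results of these data known. All members were to be described, and list genes named where a comparison called them or both late arrays of a retinoid lay at least 2-fold beyond both vehicle arrays. Casp6 and Dram1 are named outside this rule, as examples of genes that were not called. The 3 most similar genes by Pearson r were taken for members with a range of at least 1. The alternatives were quantile normalization, median centring, bright genes only, the mean of probe sets, eBayes with trend and robust, no common steps, the array set as a block and leaving out each array. Which arrays were normalized together is not given in the sources used here. Tables, promoter searches and figures were made with numpy 2.4.6, matplotlib 3.10.9 and pandas 2.3.3 in Python 3.11.15.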

Additional observations from a re-analysis of the deposited data

Results flagged for a closer look

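The change from early to late differed between retinoids at 1 µM in 5 of the 9 genes, by a test of the difference in the limma fit that was added after seeing the data. ATRA minus BMS753 was 1.06 in Mdm2, 1.52 in Ccng1, 2.03 in Trp53inp1, 1.51 in Eda2r and 1.68 in Phlda3 (log2). ATRA minus BMS641 was 1.07 in Mdm2, 1.40 in Ccng1, 1.90 in Trp53inp1, 1.10 in Eda2r and 1.62 in Phlda3. ATRA rose over time in these genes, while the late BMS753 arrays lay below the early ones. What sets the retinoids apart here was not tested.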

How the results depend on the processing

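Of the member calls repeated under other settings, 287 stayed called in the same direction, 132 kept their direction but were no longer called, and none changed sign. Blocking on the array set took the number of members called from 1 to 0 for ATRA late against vehicle, while the calls over all genes went from 940 to 175. It took the number from 2 to 4 for BMS961 late against vehicle. For ATRA against BMS641 it took the number from 6 to 0 early and from 3 to 0 late, where the calls over all genes also fell, from 319 and 2948 to the counts given above. Without common steps the number of members called went from 2 to 1 for BMS961 late against vehicle and from 1 to 0 for BMS961 late against early. For the course of ATRA minus BMS641 it went from 5 to 3. Median centring also took the latter from 5 to 3, and BMS753 late from 1 to 0, as did quantile normalization; eBayes with trend and robust gave 2 for BMS753 late. Of the list genes called with ATRA against BMS641, the block left none called, and Chek2 (0.24), Sfn (0.16), Aifm1 (0.09) and Dffb (0.04) changed sign. The cause of these changes was not tested.

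Leaving out 1 array gave counts against vehicle of 0 to 1 for ATRA late, 0 to 4 for BMS961 late, 0 to 3 for BMS753 late, 0 to 1 for BMS641 late, 3 to 6 for ATRA early and 0 to 1 for BMS641 early. Late against early they were 2 to 5 for ATRA and 0 to 0 for BMS961. ATRA against BMS641 gave 1 to 2 early and 0 to 3 late, and the courses of ATRA minus BMS753 and minus BMS641 each 0 to 5. A group with 1 array left is assumed to vary like the others. The fits with 1 vehicle array keep their spread from the retinoids alone. No paired analysis was possible because only the vehicle arrays carry replicate numbers. With 1 array per retinoid and time, single times have no test.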
